A study of Mus musculus with 60 samples.

Results

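The genes described here carry out the mechanics of cell division: they build the spindle, hold chromosomes to it, release the sister chromatids and cut the daughter cells apart. The set holds 48 genes, chosen by name for these roles, of 18193 genes with a named probe set on the arrays. A probe set is a group of short oligonucleotides that reads 1 transcript region. Each gene was read by the probe set with a single gene symbol and the widest interquartile range over the 52 arrays kept. The choice used the spread of the values and not the group labels. A difference between MycON and MycOFF arrays also widens that range, so the choice can favour probe sets with larger MYC effects. All 48 genes had a probe set with a single symbol, and 47 passed the filter on spread and were tested among 13176 genes. The exception was Plk1, the polo-like kinase of mitotic entry, whose interquartile range of 0.048 lay under the filter at 0.101. Its MYC effect is given only as a value, 0.25 with water and 0.07 with exendin-4 on the log2 scale.

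Dividing cells switch these genes on late in the cycle, after DNA replication, and quiescent cells hold them low through repressor complexes that are replaced by activators such as B-MYB and FOXM1 in G2. Most beta cells of adult islets are quiescent, so transcripts of this class are scarce there. MYC is a transcription factor that drives cells out of quiescence, and in beta cells its sustained activity is known to bring both proliferation and cell death.

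Pancreatic islets were taken from male pIns-MYCERTAM mice on a CBA-C57BL/6 background, in which an insulin promoter places a fusion of MYC and a modified oestrogen receptor in beta cells. The fusion is inert until 4-hydroxytamoxifen (4OHT) is given. MycON mice received 1 mg of 4OHT per day into the abdominal cavity, and MycOFF mice received peanut oil. Each of these was combined with exendin-4 (exenatide), a GLP-1 receptor agonist, at 50 µg/kg under the skin in 2 injections a day, or with water, begun 2 days before 4OHT. Islets were collected after 4, 8, 16, 32 or 72 h, which makes 20 groups. Every mouse carried the transgene, and no group received 4OHT without the fusion, so an effect of 4OHT itself and an effect of active MYC cannot be told apart. The age is 8 to 12 weeks in one label and 3 months in another. Islets were cut by laser from frozen sections of 15 µm, so the samples can hold other cells of the islet and its edge.

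Of 60 arrays the submitters excluded 8 for poor reproducibility, which left 12 groups of 3 arrays and 8 groups of 2. These were 13 MycON and 12 MycOFF arrays with water, and 12 MycON and 15 MycOFF arrays with exendin-4. The labels call the arrays biological replicates without tying them to named animals, so p-values measure the spread between these samples. On the log2 scale, a deposited value says how far a probe set lies from the median it has over the 60 arrays. They hold no level that could be set against another gene, and the presence of beta cell markers could be checked only in relative terms. The median of the beta cell markers lay between -0.82 and 1.21 on the 52 kept arrays, against -7.52 to -2.68 on 7 of the 8 excluded arrays and -0.57 on the other. In whole islets, more dividing cells and more transcript per cell cannot be told apart.

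Some arrays stood apart from their groups. Over the genes tested, MycON water 72 h replicate 3 was most like MycON water 16 h replicate 1 (r = 0.581), with a mean r of 0.0514 to its own group. Its stromal marker median was -0.68, against 1.59 to 2.90 on the other MycON 72 h arrays, and its macrophage marker median was below the 1.48 to 2.84 seen on those arrays. MycON exendin-4 16 h replicate 1 was most like MycON exendin-4 72 h replicate 3 (r = 0.324), with macrophage and stromal medians of 1.84 and 1.51. In MycOFF exendin-4 72 h replicate 2, Tspan4, a gene that rose by 2.72 ± 0.26 (SE) with 4OHT in the water arrays and by 3.01 ± 0.25 in the exendin-4 arrays, stood at 0.69, against -2.73 to -1.06 on the other MycOFF arrays. Over the genes tested, however, that array was most like another MycOFF array, exendin-4 16 h replicate 3 (r = 0.426). Its mean r to its own group was -0.0816 and its stromal median was 1.88. These 3 arrays were picked after the values were seen, on their likeness to other groups, on cell markers and on Tspan4, and not on likeness to their own group alone. A mean r to the own group under 0.0514 was also found on arrays that were not picked. Among them were MycOFF water 72 h replicates 1 and 3 (-0.225 each), MycOFF exendin-4 72 h replicate 3 (-0.115) and MycOFF exendin-4 16 h replicate 2 (-0.0719). For the 3 arrays an exchanged label and a true difference between animals cannot be told apart. All were kept under their labels, so the 16 h and 72 h values include them, and each count was also taken over the 49 arrays without them. The 49-array counts depend on this choice.

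Promoter sequences are described first. They were looked up after the fits, because most of these genes moved together. RefSeq promoter windows on GRCm38.p6, from 250 bases before to 50 bases after the transcription start, existed for 41 of the 48 genes, as 43 windows of 300 bases. The windows were searched on both strands for TTTGAA, the CHR element bound by the MuvB complexes that time G2 and M phase genes, and for the CCAAT box that NF-Y binds. They were also searched for the E-box CACGTG, which MYC with MAX can bind, and for the E2F sites TTTCCCGC, TTTGGCGC, TTTCGCGC and TTTGCCGC. The stretches shown are the 100 bases before the start, 5′ to 3′ on the gene's own strand, with matches in capitals (ATTGG is CCAAT read on the other strand). Shown are the 5 genes with the smallest p among those that had a window and were called with MYC under both injections. They are Cdca5 (chr19:6084997-6085096, plus strand), Trip13 (chr13:73937768-73937867, minus), Ncaph (chr2:127133955-127134054, minus), Cks2 (chr13:51645132-51645231, plus) and Cdca8 (chr4:124936918-124937017, minus).
Cdca5: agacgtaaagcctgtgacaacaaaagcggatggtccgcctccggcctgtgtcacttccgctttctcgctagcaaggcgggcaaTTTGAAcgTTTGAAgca
Trip13: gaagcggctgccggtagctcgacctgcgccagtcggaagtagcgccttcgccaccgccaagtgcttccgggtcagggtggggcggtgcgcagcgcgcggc
Ncaph: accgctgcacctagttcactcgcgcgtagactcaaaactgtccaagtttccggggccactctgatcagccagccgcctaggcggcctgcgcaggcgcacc
Cks2: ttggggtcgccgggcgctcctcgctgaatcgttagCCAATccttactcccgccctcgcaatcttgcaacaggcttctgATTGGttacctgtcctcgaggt
Cdca8: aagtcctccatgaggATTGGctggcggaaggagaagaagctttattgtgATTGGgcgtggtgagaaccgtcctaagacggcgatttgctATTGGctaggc

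The Cdca5 stretch holds 2 CHR matches, Cks2 holds 2 CCAAT boxes and Cdca8 holds 3, while the stretches of Trip13 and Ncaph hold none of the motifs. Over all members, the CHR element was in the window of 28 of 41 genes (68.3%), against 20.2% of the 27025 genes with a window. It lay close to the start: 29 of the 38 matches in members (76.3%) fell within 50 bases of it, against 25.3% of the 6737 matches in all promoters. The CCAAT box was also in 28 of 41 genes (68.3%), against 41.1% of all genes. Both motifs together were in 24 genes (58.5%), against 7.97% of all genes. By contrast the E-box was in 3 of 41 members (7.32%), close to the 8.09% of all genes, and an E2F site was likewise in 3 (7.32%), against 2.61%. DNA replication genes had another composition, with an E2F site in 10 of 20 (50%), CCAAT in 16 (80%) and the CHR element in 3 (15%). In 1 place matches of different motifs overlapped. These are matches of letters and were not tested. The CHR element was in 20 of the 30 windowed genes called at 16 h and in 8 of the 11 others, among them Plk1, whose MYC effect was not tested.

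With MYC active, most division genes were higher at 16 h (35 of 47 called), few differed at 32 h (1 called), and 13 were called again at 72 h. Within each array the median of the 47 genes shows this course. In MycON islets with water at 16 h the array medians were 4.04 and 1.70, and with exendin-4 they were 0.35 (replicate 1, which stood apart) and 2.80. All 5 MycOFF arrays at 16 h lay between -0.53 and -0.01, below each of these. At 8 h the MycON medians were 1.33, 0.06 and 0.09 (water) and, in the exendin-4 arrays, 1.14, 1.54 and 1.84, against -0.21 to 0.37 in MycOFF, so the groups overlapped through water arrays. At 72 h they were 0.26, 0.41 and 2.99 (water) and, in the exendin-4 arrays, 0.76, 1.41 and 1.49. The highest, 2.99, belongs to replicate 3, the array most like a 16 h array. At 4 h (-0.19 to 0.04) and at 32 h (-0.17 to -0.05) the MycON arrays lay within or close to the MycOFF range. Over all times the 27 MycOFF arrays ran from -0.60 to 1.52 with a median of -0.12. A median above 0.5 was found on 2 of them, MycOFF exendin-4 72 h replicate 2 (1.52) and MycOFF exendin-4 4 h replicate 3 (0.97), and on 11 of the 25 MycON arrays.

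**Figure D1:**
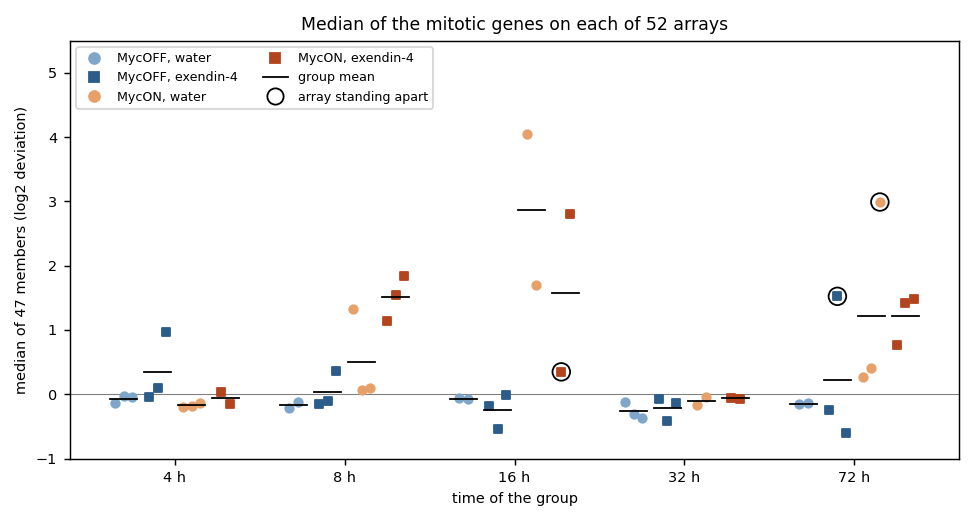
Median log2 deviation of the 47 tested division genes on each of the 52 arrays (y axis), by time after the first 4OHT or oil injection (x axis), MYC state and injection. Points are arrays, short bars are group means and circles mark the 3 arrays that stood apart. The MycON arrays at 16 h lie at 0.35 to 4.04, above all MycOFF arrays of that time.

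Averaged over the 5 times, the MYC effect (MycON minus MycOFF) with water was called, at an adjusted p under 0.05, for 22 of the 47 genes, all higher, against 5.59% of all genes tested. It was above 0 for 45 of the 47, with a median of 1.09 (all genes, -0.03). With exendin-4, 17 of 47 were called, all higher, against 5.79% of all genes. There 46 were above 0, with a median of 0.89 (all genes, -0.02). Both injections called 15 of the genes, which is 68.2% of those called with water and 88.2% of those called with exendin-4. The tests were limma moderated tests over 20 group means, with Benjamini-Hochberg adjustment over 13176 genes. Without the 3 arrays that stood apart, 28 genes were called with water and 35 with exendin-4. Leaving out MycON water 16 h replicate 1 gave 11 with water, and leaving out MycON exendin-4 16 h replicate 3 gave 10 with exendin-4. When the 8 excluded arrays were put back, no gene was called with water.

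Taken time by time, the mean of both injections showed the same course. At 4 h, 1 of 47 genes was called, Kif22, and it was lower (2.29% of all genes were called). The count was 8 at 8 h (3.93% of all genes), 35 at 16 h (2.28%), 1 at 32 h (3.31%) and 13 at 72 h (1.38%), all higher. At 16 h every one of the 47 tested genes was above 0, with a median MYC effect of 2.62, when the median of all genes was 0.04. The median was -0.26 at 4 h, 0.92 at 8 h, 0.26 at 32 h and 1.48 at 72 h. All 8 genes called at 8 h and all 13 called at 72 h were also called at 16 h, and 2 genes were called at both 8 h and 72 h. On the chosen probe sets, the largest of the 5 effects fell at 16 h for 43 genes, at 8 h for Trip13 and Spc25, and at 72 h for Smc2 and Pttg1. Over the 7 MYC effects (5 times and 2 averages, which use the same arrays), 35 genes were called at least once. The 12 never called on their chosen probe sets were Espl1, Kif18a, Kif20a, Kif23, Ncapg, Ndc80, Nek2, Pttg1, Smc2, Smc4, Spc25 and Ttk.

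The count at 16 h rests on 4 MycON and 5 MycOFF arrays and moved with single arrays. It was 7 without MycON water replicate 1, 12 without MycON exendin-4 replicate 3 and 19 without MycOFF water replicate 3. Fitted on those 9 arrays alone it was 1, while over the 49 arrays it was 43. The 7 genes called in each of the 52 omissions of a single array were Cdca8, Birc5, Spc24, Nusap1, Prc1, Ube2c and Ncaph. At 72 h the count was 22 without MycOFF exendin-4 replicate 2 and 19 over the 49 arrays. It was 5 without MycON water replicate 3, 8 and 4 without MycON exendin-4 replicates 2 and 3, 3 without replicate 1 and 4 without replicate 3 of MycOFF exendin-4, and 1 without MycOFF water replicate 3. Ube2c was the only gene called at 72 h in all 52 omissions. The count at 8 h was 4 and 5 without MycOFF water replicates 1 and 3 and 13 over the 49 arrays. The single call at 32 h was lost without MycON water 32 h replicate 3, and the count there was 2 without MycOFF exendin-4 72 h replicate 1 or 2 and 4 over the 49 arrays.

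**Figure D2:**
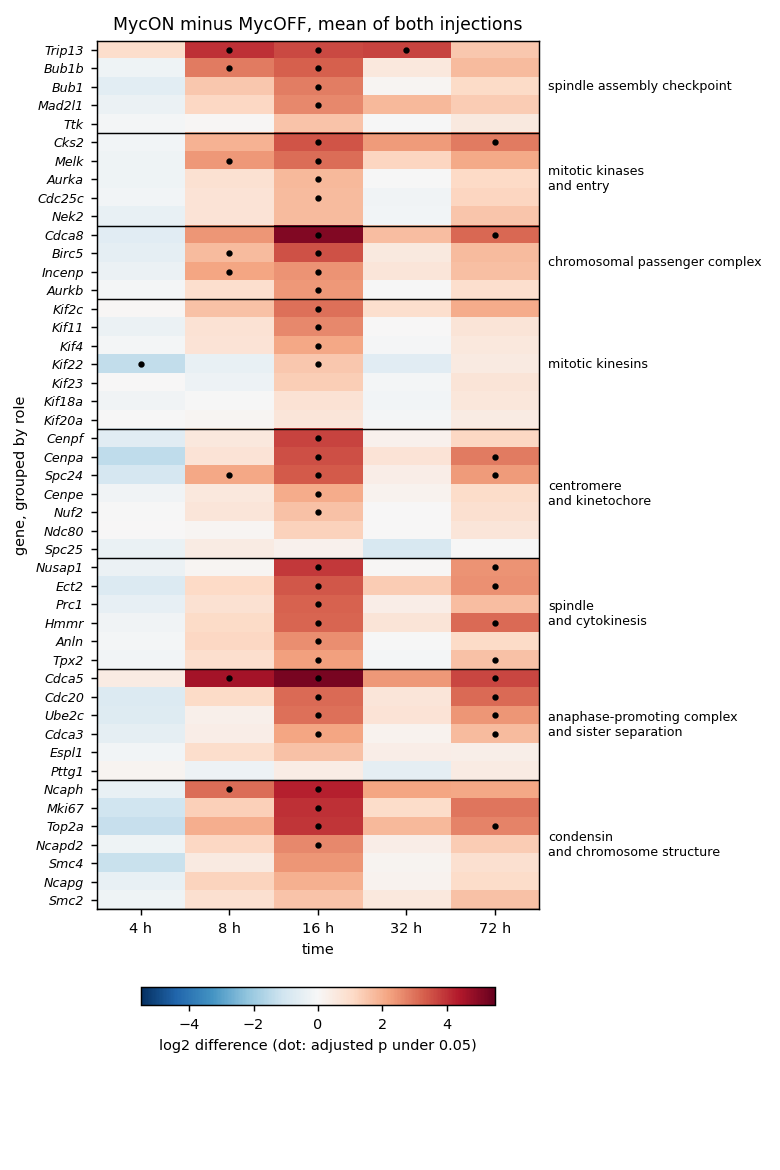
MYC effect (MycON minus MycOFF, log2, colour scale) of the 47 tested division genes (y axis, by role) at 5 times (x axis), mean of both injections. Dots mark genes called at an adjusted p under 0.05: 1 at 4 h, 8 at 8 h, 35 at 16 h, 1 at 32 h and 13 at 72 h.

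The spindle assembly checkpoint holds back anaphase until all chromosomes are attached, and 4 of its 5 genes were called at 16 h, 4 in the average with water and 2 in that with exendin-4. Trip13, the ATPase that takes the checkpoint complex apart, was the only gene called at 32 h. With MYC active its values at 8 h were 3.08, 1.35 and 1.09 (water) and, in the exendin-4 arrays, 3.14, 3.29 and 1.84, against -2.53 to -1.30 on the 5 MycOFF arrays, with no overlap. At 32 h they were -0.48 and 1.82 (water) and, in the exendin-4 arrays, 2.08 and 2.53, again above all MycOFF arrays (-2.94 to -1.66). At 72 h the groups overlapped, since the MycOFF exendin-4 array that stood apart reached 2.84. The MYC effect on Trip13 at 8 h was 4.03 ± 0.74 (SE, adjusted p = 8.13e-04), and it remained at 3.61 ± 0.82 (16 h, 0.0113) and 3.71 ± 0.78 (32 h, 0.00508). Bub1b, the BUBR1 checkpoint protein, rose at 8 h (2.86 ± 0.70) and 16 h (3.31 ± 0.77; adjusted p = 0.0127 and 0.0141). Bub1, the kinase that starts checkpoint assembly at the kinetochore, rose at 16 h by 2.83 ± 0.59 (adjusted p = 0.0064). Mad2l1, which encodes the MAD2 inhibitor of anaphase, rose there by 2.63 ± 0.61 (0.0141). The MPS1 kinase gene Ttk, at 1.55 ± 0.44, did not pass (adjusted p = 0.0506).

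Among the kinases and other regulators of mitotic entry, 4 of 5 tested genes were called at 16 h, 2 in each average and 1 each at 8 h and 72 h. Cks2, a small subunit of cyclin-dependent kinases, was the most variable. Its MycON values at 16 h were 4.04 and 1.85 (water) and, in the exendin-4 arrays, 0.77 and 2.48, and the MycOFF values ran from -2.56 to -0.02. At 32 h the MycON values (-0.33 to 0.42) were near the probe set's median, and the MycOFF values were lower still, from -3.82 to -1.67, so the groups stayed apart at both times. The MYC effect on Cks2 was 3.48 ± 0.81 at 16 h (adjusted p = 0.0141) and 2.86 ± 0.74 at 72 h (0.0393). At 32 h it was 2.32 (adjusted p = 0.0978). Melk, a kinase abundant in dividing progenitors, rose at 8 h (2.40) and 16 h (3.06; adjusted p = 0.0312 and 0.0159). Aurka, the spindle pole kinase, rose by 1.80 (0.0115) and Cdc25c, a phosphatase that activates CDK1, by 1.76 (0.0286), both at 16 h. Neither was called at another time, but at 72 h the MycON and MycOFF medians were 1.82 and 0.03 for Aurka. For Cdc25c they were 1.09 and -0.02. Nek2, a kinase of centrosome separation, was at 1.74 (adjusted p = 0.0857).

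All 4 genes of the chromosomal passenger complex, which corrects faulty attachments and later directs cytokinesis, were called at 16 h. Cdca8, which encodes the borealin subunit, had an effect second only to Cdca5 among the 47 genes at 16 h. With MYC active its 16 h values were 4.78 and 2.20 (water) and, in the exendin-4 arrays, 1.37 and 3.82, against -3.56 to -0.14 in MycOFF. The lowest MycON array thus lay above the highest MycOFF array. Its MYC effect was 5.09 ± 0.81 (34-fold, adjusted p = 3.91e-04) at 16 h and 3.15 ± 0.73 at 72 h (0.0181). Birc5 (survivin) rose at 16 h by 3.49 ± 0.55 (adjusted p = 3.35e-04) from MycOFF values of -0.85 to -0.02 to 4.67 and 3.09 (water) and, in the exendin-4 arrays, 1.18 and 3.08. The scaffold gene Incenp rose at 8 h (2.15) and 16 h (2.48; adjusted p = 0.0101 and 0.0119). The kinase gene Aurkb was called at 16 h alone, at 2.40 (0.0234).

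The 7 mitotic kinesins, motors that slide, cap or shorten spindle microtubules, gave 4 calls at 16 h, none with water on average and 1 with exendin-4. Kif2c, a microtubule depolymerase at the centromere, had MycON values of 4.03 and 2.28 (water) and, in the exendin-4 arrays, 0.78 and 3.42 at 16 h, against -1.48 to 0.16 in MycOFF. Its MYC effect there was 3.05 (adjusted p = 0.0403). Kif11, the motor that pushes spindle poles apart, rose by 2.62 (0.0132), and Kif4, a motor of chromosome arms and the midzone, by 2.13 (0.00865). Kif23, Kif18a and Kif20a, motors of the midzone and of chromosome alignment, were at 1.35, 0.80 and 0.66 without passing.

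At the earliest time, when the MYC effect of most of the 47 genes lay below 0, Kif22, a motor that binds chromosome arms, was called lower. At 4 h the MycON values were -1.85, -1.29 and -1.60 (water) and, in the exendin-4 arrays, -0.93 and -1.15, all below the 6 MycOFF arrays (-0.77 to 0.57). At 16 h they were 2.03, 0.80, 0.61 and 1.56, all above MycOFF (-0.65 to 0.09). The MYC effect was -1.36 ± 0.34 at 4 h (adjusted p = 0.0202) and 1.48 at 16 h (0.0234). The call at 4 h rests on the chosen probe set: the mean over the probe sets of Kif22 that passed the filter was -0.43 (adjusted p = 0.371). Over all 60 arrays the effect was -1.18 (0.31). The 4 h call was also lost when any of 4 arrays was left out: MycON exendin-4 4 h replicate 1 or 2, MycON water 4 h replicate 1 or MycOFF exendin-4 4 h replicate 3. Of the 47 genes, 6 were above 0 at 4 h, and 3 had an unadjusted p under 0.05. The 1 call among the 47 is near the share of all genes called at 4 h, 2.29%.

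Among the 7 centromere and kinetochore genes, 5 were called at 16 h, 1 in each average, 1 at 8 h and 2 at 72 h. Cenpa is the histone H3 variant that marks the centromere. At 16 h its MycON values were even across injections, 3.50 and 2.40 (water) and, in the exendin-4 arrays, 3.06 and 2.36, against -1.41 to -0.28 in MycOFF. At 72 h the 6 MycON arrays lay between 2.07 and 3.30, but MycOFF exendin-4 replicate 2 reached 3.53 where the others were at -1.71 to -0.53. Its MYC effect was 3.54 ± 0.75 at 16 h (adjusted p = 0.0073) and 2.88 ± 0.68 at 72 h (0.0198), and -1.39 at 4 h (0.411). Spc24, a subunit of the NDC80 complex that grips microtubules, was called in both averages and at 3 times. The rise was 2.11 at 8 h (adjusted p = 0.00364), then 3.35 ± 0.49 (16 h, 1.33e-04) and 2.32 (72 h, 0.00253). Cenpf, an outer kinetochore protein, rose by 3.72 at 16 h (0.00436). The motor gene Cenpe rose 4.15-fold (adjusted p = 0.0454) and the NDC80 subunit gene Nuf2 rose 3.03-fold (0.0179). The other 2 subunit genes of that complex, Ndc80 (1.25, adjusted p = 0.0567) and Spc25 (0.24, 0.817), were not called, and Spc25 was also the gene least like the rest over the arrays.

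The 6 spindle assembly and cytokinesis genes were called without exception at 16 h and in the average with water, besides 3 in that with exendin-4 and 4 at 72 h, but none at 8 h. Hmmr, a spindle protein also known as a hyaluronan receptor, had 16 h MycON values of 5.00 and 2.56 (water) and, in the exendin-4 arrays, -0.14 and 2.96, against -1.32 to 0.10 in MycOFF. The low value is that of exendin-4 replicate 1, which stood apart, and through it the groups overlapped. The MYC effect on Hmmr was 3.22 at 16 h (adjusted p = 0.0172) and 3.10 at 72 h (0.0144). Nusap1, which bundles microtubules around chromosomes, rose by 3.90 ± 0.62 at 16 h (adjusted p = 3.91e-04) and 2.46 at 72 h (0.0157). Ect2, the exchange factor that sets the cleavage plane, rose by 3.41 and 2.51 (0.0073 and 0.0411). Prc1, the midzone bundler, rose by 3.24 at 16 h (0.00165) and Anln, a scaffold of the contractile ring, by 2.54 (0.00826). Tpx2, an activator of Aurora A, rose at 16 h (2.27) and 72 h (1.61; 0.00596 and 0.0429).

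Of the 6 genes of the anaphase-promoting complex and of sister chromatid cohesion and release, 4 were called at 16 h and 4 at 72 h, 3 in each average and 1 at 8 h. Cdca5, which encodes sororin, the protector of sister cohesion, had the largest effect at 16 h of the 47 genes. At 8 h its MycON values were 3.15, 1.80 and 1.65 (water) and, in the exendin-4 arrays, 3.52, 3.20 and 3.27, against -3.89 to -0.21 in MycOFF. At 16 h they were 5.32, 2.96, 0.86 and 4.08, against -3.72 to 0.62. The MycOFF values spread widely at both times, and at 16 h the groups stood apart by a small margin. Its MYC effect reached 5.21 ± 1.06 at 16 h (37-fold, adjusted p = 0.00523), between 4.59 ± 0.96 (8 h, 0.00342) and 3.68 ± 0.96 (72 h, 0.0414). Ube2c, the ubiquitin-conjugating enzyme of the complex, was not called before 16 h. Its MycON values at 8 h were 0.15, -0.53 and -0.08 (water) and, in the exendin-4 arrays, 0.02, 1.43 and 2.47, within the MycOFF range of -0.43 to 2.18 but for the highest and lowest. At 16 h they were 3.69, 3.54, 2.50 and 2.12, above all MycOFF arrays (-0.37 to 0.22). The MYC effect on Ube2c was 3.01 ± 0.43 at 16 h (adjusted p = 1.21e-04) and 2.41 ± 0.39 at 72 h (2.87e-04). Cdc20, the activator that the checkpoint restrains, rose by 3.12 at both 16 h and 72 h (0.0186 and 0.0119). Cdca3, a trigger of mitotic entry, rose by 2.18 and 1.73 (0.00627 and 0.0198). Neither separase (Espl1, 1.61, adjusted p = 0.123) nor its inhibitor securin (Pttg1, 0.39, 0.724) was called at 16 h.

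Condensin folds chromosomes, and with Top2a and Mki67 its genes gave 4 calls of 7 at 16 h. Ncaph, a subunit of condensin I, had MycON values of 4.84 and 2.49 (water) and, in the exendin-4 arrays, 1.10 and 3.37 at 16 h, against -1.92 to -0.34 in MycOFF, with no overlap. At 32 h the MycON arrays (-0.27 to 1.23) also lay above all MycOFF arrays (-2.01 to -1.16). Its MYC effect was 3.08 at 8 h (adjusted p = 0.00771) and 4.29 ± 0.78 at 16 h (19.5-fold, 0.00179). At 32 h it was 2.15 (adjusted p = 0.114). Mki67, the source of the Ki-67 antigen that marks cycling cells, rose by 4.03 at 16 h (0.0111), and Top2a, which disentangles DNA, by 3.95 (0.00428) and at 72 h by 2.72 (0.0419). The condensin I subunit gene Ncapd2 rose by 2.65 at 16 h (0.0183). The genes Smc4 (2.45), Ncapg (1.96) and Smc2 (1.58), of the same complex, had adjusted p of 0.0678, 0.129 and 0.204. The reading of Smc2 rests on the chosen probe set: its other probe sets past the filter had effects of 2.98, 0.69 and -0.01 at 16 h.

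**Figure D3:**
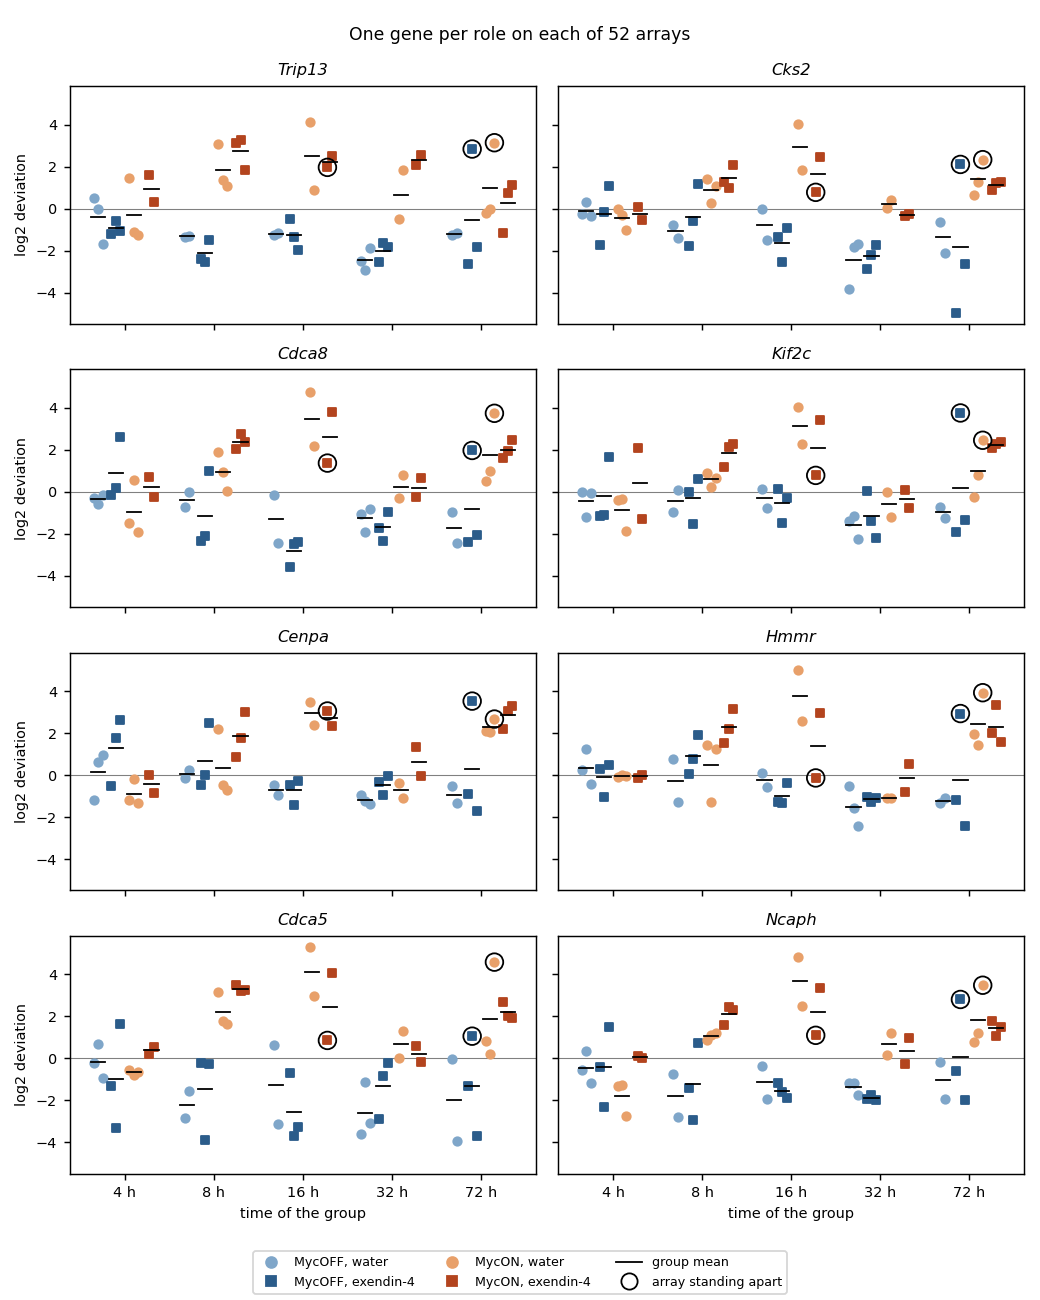
Log2 deviation (y axis) on each array for the gene with the widest interquartile range in each of 8 roles, by time (x axis), MYC state and injection. Points are arrays. The MycON arrays of Cenpa at 16 h lie at 2.36 to 3.50, and MycON exendin-4 replicate 1 is the low array for Hmmr at -0.14.

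The differences between times were also tested directly. An F test of any change of the MYC effect over the 5 times called 10 of 47 genes, against 1.59% of all genes. They were Ube2c, Spc24, Nusap1, Kif22, Birc5, Cenpa, Cdca8, Top2a, Cdca3 and Prc1. In MycON islets alone, 33 of 47 changed over time, against 7.48% of all genes, and in MycOFF islets limma called 0 of 47 (0.00759% of all genes; 3 had an unadjusted p under 0.05). Between neighbouring times limma called few genes. From 4 h to 8 h it called 0 (0% of all genes), with 14 at an unadjusted p under 0.05 and 45 of 47 above 0. From 8 h to 16 h it called 1 (0.0683% of all genes), Ube2c, whose effect was larger by 2.75 ± 0.58 (adjusted p = 0.0487). From 16 h to 32 h it called 0 (0.0455% of all genes), although 46 of 47 differences were below 0, with a median of -2.13 and 33 at an unadjusted p under 0.05. The smallest adjusted p there was 0.0598, and Nusap1 differed by -3.82 and Spc24 by -3.00. From 32 h to 72 h it called 0 (0.531% of all genes), with 13 at an unadjusted p under 0.05 and 43 above 0.

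These counts moved with the 3 arrays that stood apart and with others. For the fit of 49 arrays no share of all genes called is given, so its counts cannot be set against a change over all genes. Over the 49 arrays the F test called 36 genes, the difference from 8 h to 16 h 13, that from 16 h to 32 h 20, that from 4 h to 8 h 4 and that from 32 h to 72 h 1. Nusap1 then differed between 16 h and 32 h by -4.85 ± 0.64 and Mki67 by -4.07. With all 52 arrays, the F test count was 5 without MycON exendin-4 4 h replicate 2, 6 without MycON water 16 h replicate 1, and 20, 19, 17 and 19 without MycON exendin-4 16 h replicate 1, MycON water 16 h replicate 2, MycON water 72 h replicate 3 and MycOFF exendin-4 72 h replicate 2. Birc5, Kif22, Spc24, Nusap1 and Ube2c were called in each of the 52 omissions. The count of changes in MycON islets was 20 without MycON water 16 h replicate 1 or MycON exendin-4 16 h replicate 3. For the fall from 16 h to 32 h, the count was 13 without MycON water 16 h replicate 2, 7 without MycON exendin-4 16 h replicate 1 and 5 without MycON water 72 h replicate 3. The difference of Ube2c between 8 h and 16 h lost its call in 38 of the 52 single omissions, among them that of MycON water 16 h replicate 1, and in 4 of 8 other settings.

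Averaged over the 5 times, no division gene passed the test for exendin-4. In MycOFF islets, limma called 0 of 47 for exendin-4 against water (0.228% of all genes), with 0 at an unadjusted p under 0.05 and a median difference of 0.14 over the 5 times. In MycON islets it called 0 (0.0683% of all genes), with 1 at an unadjusted p under 0.05, Ube2c, higher by 0.58, and a median of 0.01. The interaction, the MYC effect with exendin-4 minus that with water, was called for 0 (0% of all genes), with 0 at an unadjusted p under 0.05. Its median was -0.15, and 11 of 47 were above 0. The median standard error of the interaction was 0.49 and the 95% intervals of single genes reached from -1.82 to 2.01, so differences of that size are not detectable with these arrays. Exendin-4 was not compared with water at single times, and at 8 h 2 of the 3 MycON water medians (0.06 and 0.09) lay below the 3 of exendin-4 (1.14 to 1.84). Over the 49 arrays the calls were also 0 in the 3 tests, but the median of the interaction turned to 0.41, with 38 of 47 above 0. Among the largest averages, Cdca5 stood at 3.28 ± 0.64 with water and 3.25 ± 0.61 with exendin-4, Ncaph at 2.25 and 2.24, Cdca8 at 2.10 ± 0.49 and 2.60 ± 0.47, and Trip13 at 2.45 ± 0.49 and 3.08 ± 0.47.

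**Figure D4:**
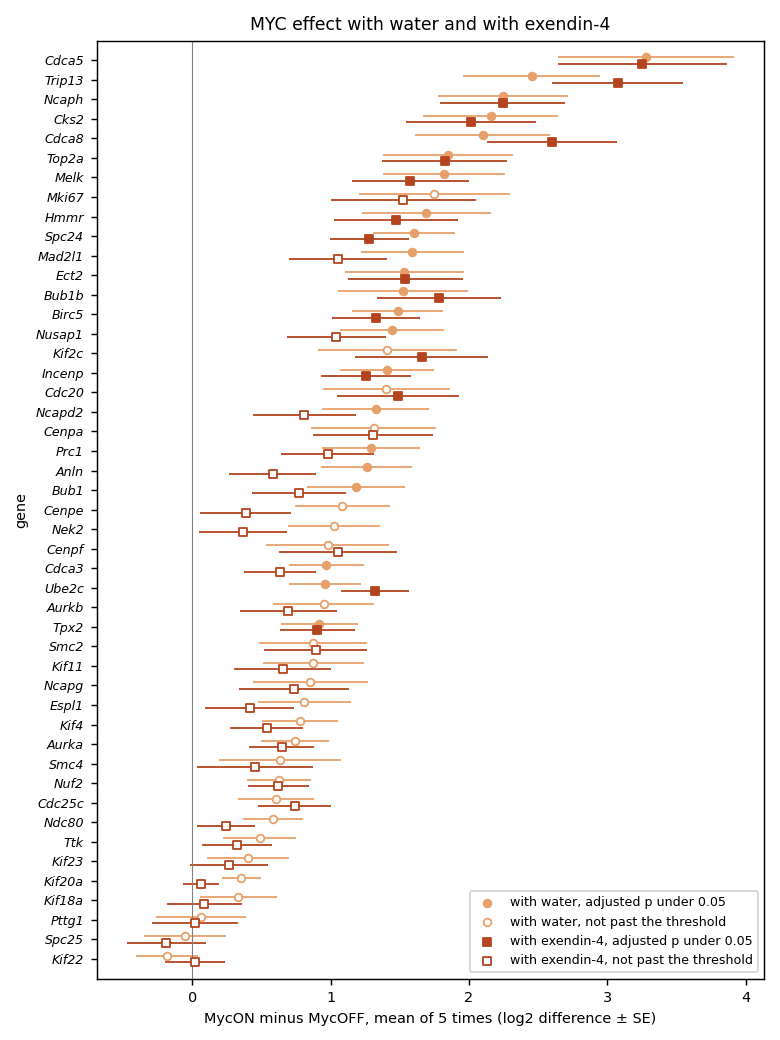
MYC effect averaged over 5 times (log2, x axis, with SE bars) for each of the 47 tested division genes (y axis), with water and with exendin-4. Filled points are called at an adjusted p under 0.05: 22 with water and 17 with exendin-4, of which 15 are shared.

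The genes of neighbouring pathways moved in part. Of 24 other kinetochore genes tested, 8 rose at 16 h, 2 at 8 h and 3 at 72 h, led by Cenpk, of the inner kinetochore, at 4.20 ± 0.56 (adjusted p = 5.37e-05). Cenpw and the cohesin protector Sgo1 rose there by 2.15 and 2.75. Of 18 other spindle and cytokinesis genes, 10 rose at 16 h and 1 at 72 h, and of 12 regulators of mitotic entry, 3 rose at 16 h and 2 at 72 h. The core subunits of the anaphase-promoting complex and of cohesin, which are not confined to dividing cells, gave 1 call of 22 at 16 h and a median MYC effect of 0.49. No gene of these 4 lists was called at 4 h or 32 h, where limma had called 2.29% and 3.31% of all genes. At 8 h, 16 h and 72 h it had called 3.93%, 2.28% and 1.38% of all genes.

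DNA replication genes, which act in S phase, followed another course. Of 23 tested, 18 were called higher at 8 h, 12 at 16 h, 13 at 32 h and 6 at 72 h. Over all genes, 3.93%, 2.28%, 3.31% and 1.38% were called at these times. The median MYC effect of the replication genes was 2.78, 1.87, 1.88 and 1.27, in the same order. The largest effect fell at 8 h for 12 of them, at 16 h for 8 and at 32 h for 3, while 43 of the 47 division genes peaked at 16 h. At 32 h the medians were 1.88 for the replication genes and 0.26 for the division genes. Whether this contrast between the 2 lists exceeds the spread was not tested. MycON water 72 h replicate 3 was also high for replication genes (2.46), and MycON exendin-4 16 h replicate 1 was low (0.03). Over the 52 arrays, the medians of the 2 lists had a correlation of 0.80, a description over arrays that share groups.

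**Figure D5:**
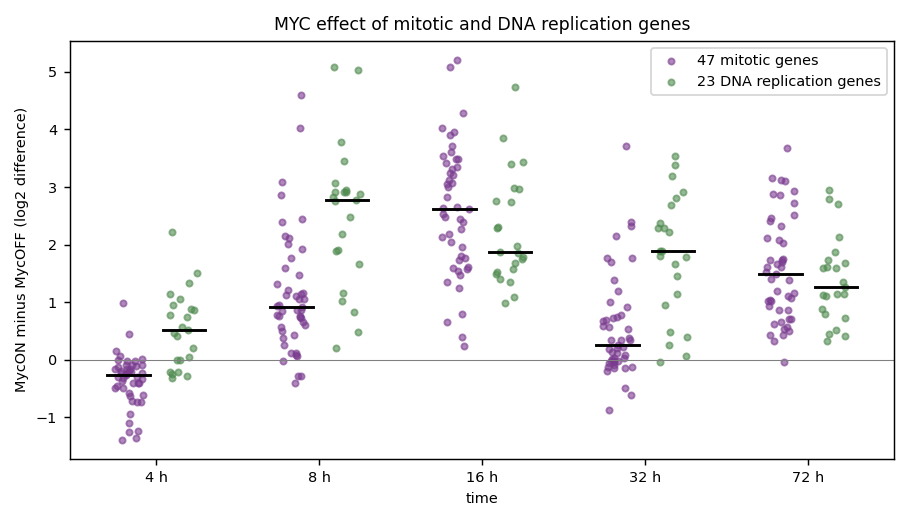
MYC effect (log2, y axis) of the 47 division genes and of 23 DNA replication genes at 5 times (x axis), mean of both injections. Points are genes and bars are list medians: the division genes peak at 16 h (2.62) and the replication genes at 8 h (2.78).

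The members varied together over the arrays. The correlation of a gene with the median of the others was above 0.8 for 29 genes, led by Birc5 (0.96), Ncapd2 (0.95) and Prc1 (0.95), and under 0.5 for 3, among them Pttg1 (0.27) and Spc25 (-0.12). The median over 1081 pairs was 0.70. These correlations describe 52 arrays that share groups and carry no test. Other probe sets gave a second reading for 35 genes. Of the 63 further probe sets, 34 passed the filter on spread, 25 had r above 0.5 to the chosen one, and 19, from 16 genes, had a MYC effect above 1 at 16 h. Cdca5, Cdca8 and Ncaph had the largest effects at 16 h on the chosen probe sets (5.21, 5.09 and 4.29). On their other probe sets past the filter the effects were 3.16 for Cdca5, 0.72 and 4.26 for Cdca8 and 1.83 for Ncaph.

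Markers of other cells moved with MYC at some of the same times. At 16 h, when 35 division genes were called, 2 of 10 macrophage markers were called higher (median 1.55) and none of 10 stromal or 8 beta cell markers (medians -0.24 and 0.02). On the MycON 16 h arrays the macrophage median ran from -0.59 to 1.84 and on the MycOFF ones from -0.30 to 0.00. At 72 h, 5 of 10 macrophage markers (median 1.92), 2 of 10 stromal markers (1.17) and 1 of 2 lymphocyte markers were called higher. Those 2 were the only lymphocyte markers past the filter, of 10 on named probe sets. The median of the 10 stayed between -0.05 and 0.15 on the MycON 72 h arrays. The macrophage median there ran from below 0 to 2.84 in MycON and from -0.38 to 0.21 in MycOFF. At 8 h no macrophage or stromal marker was called and 1 of 8 beta cell markers was lower (median -1.09). Over all genes, 3.93% were called at 8 h, 2.28% at 16 h and 1.38% at 72 h. The part of cells other than beta cells in the division signal was not tested. The MycON water 16 h arrays had division medians of 4.04 and 1.70 and macrophage medians of -0.59 and 1.01 (replicates 1 and 2). With exendin-4 at 16 h the division medians were 0.35 and 2.80 and the macrophage medians 1.84 and -0.10 (replicates 1 and 3). On MycON exendin-4 72 h replicates 2 and 3 the division medians were 1.41 and 1.49 and the macrophage medians 1.97 and 2.84. On MycON water 72 h replicate 3 they were 2.99 and -0.002.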

How the data were processed

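The members and gene lists were chosen with earlier results of these data known. RNA of laser-captured islets was measured on Affymetrix Mouse430_2 arrays. The log2 values were used as the authors deposited them. MAS5 and GCRMA appear in the submitters' processing notes, without a version or a stated step. The log base was not stated and was inferred: values reach 12.8, above the 11.1 that a natural log of a 16-bit intensity can take. The median over the 60 arrays was within 1e-04 of 0 for 100% of probe sets, so values are deviations, not levels. Of 45101 probe sets, 34945 have 1 gene symbol. Probe sets under the 40th percentile of the interquartile range over the 52 kept arrays were left out of the tests, and the widest remaining 1 stood for a gene. With limma 3.58.1 (R 4.3.3), 20 group means were fitted over the 52 arrays with moderated variances (32 residual degrees of freedom), and p-values were adjusted by Benjamini-Hochberg over 13176 genes. The fit was tested on simulated data. The number of arrays limits the precision.

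All 48 genes are accounted for by role, with counts in each comparison and up to 3 genes per role named, those with the smallest p, besides genes that go against the rest. Array values are given for the gene of each role with the widest interquartile range. Other genes named with values were chosen after the values were seen. Alternatives were all 60 arrays, quantile normalization, centring of arrays, means over probe sets, no spread filter, a replicate block, array weights, fits of the arrays compared and omission of each array. The 49-array fit was added after seeing the data.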

Additional observations from a re-analysis of the deposited data

Results flagged for a closer look

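The MYC effect differed among the 5 times for 10 division genes (limma F test, mean of both injections). The adjusted p was 4.75e-04 for Ube2c, 6.57e-04 for Spc24, 0.00625 for Nusap1, 0.0065 for Kif22, 0.0136 for Birc5, 0.0169 for Cenpa, 0.0214 for Cdca8, 0.0281 for Top2a, 0.02995 for Cdca3 and 0.0418 for Prc1. For Ube2c the effect was also larger at 16 h than at 8 h, by 2.75, a call lost in 38 of 52 omissions of a single array and in 4 of 8 other settings (all 60 arrays, quantile normalization, no spread filter and array weights).

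Among the 8 arrays that the submitters excluded, 2 labelled MycOFF with water had a division gene median above that of every kept MycOFF array (1.52 at most): 1.54 in the 8 h array, replicate 2, and 2.96 in the 72 h array, replicate 2. Their lymphocyte marker medians were 6.13 and 3.30 and their beta cell marker medians -4.29 and -2.68.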

How the results depend on the processing

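Values are counts of the 47 division genes called. Over all 60 arrays, the counts were 0 with water, 0 at 4 h, 1 at 8 h, 6 at 16 h, 0 at 72 h, 0 for the step from 8 h to 16 h, 0 for the change of the MYC effect over time and 12 for the change in MycON islets. With array weights they were 17 at 16 h, 6 at 32 h, 1 for 4 h to 8 h, 0 for 8 h to 16 h, 1 for 16 h to 32 h and 19 for the change of the MYC effect. Fits of only the arrays compared gave 1 at 16 h, 5 at 32 h and 0 at 72 h. Quantile normalization gave 4 at 32 h, 0 for 8 h to 16 h and 1 for 16 h to 32 h. Means over probe sets gave 0 at 4 h and 2 for 16 h to 32 h, and no spread filter gave 8 at 72 h and 0 for 8 h to 16 h. The 49 arrays gave 35 with exendin-4, 13 at 8 h, 4 at 32 h, 4, 13, 20 and 1 for the 4 steps between times, and 36 for the change of the MYC effect. Omitting 1 array at a time gave 11 to 33 with water, 10 to 25 with exendin-4, 0 to 1 at 4 h, 4 to 10 at 8 h, 7 to 42 at 16 h, 0 to 2 at 32 h, 1 to 22 at 72 h, 0 to 1, 0 to 5, 0 to 13 and 0 to 1 for the 4 steps, 5 to 20 for the change of the MYC effect and 20 to 38 for the change in MycON islets. The causes were not tested. No call of a named gene changed its sign.

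Same-numbered arrays did not deviate together (mean r 0.0078, against -0.0036 for other numbers, and 20 of 52 arrays were most like their own number). No pairing by number showed in these values, which cannot settle whether same-numbered samples were handled together. With a replicate block the counts were 22 with water, 17 with exendin-4, 37 at 16 h and 11 at 72 h, and 2 for 8 h to 16 h.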
